A study of Mus musculus with 4 samples.

Results

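Olfactory sensory neurons of the main olfactory epithelium were divided by the class of the odorant receptor gene they transcribed, and neurons of class I receptors were compared with neurons of class II receptors. A barcode was counted as an assigned neuron when it held 500 or more genes, at most 10% mitochondrial UMIs, 5 or more UMIs of Omp, the marker of mature olfactory neurons, and at most 15 UMIs of Cyp2g1, a marker of sustentacular (supporting) cells. Its top receptor gene also had to hold 3 or more UMIs and 80% of all receptor UMIs of the barcode. The members were thus chosen by their counts of receptor RNA, Omp and Cyp2g1, and these genes are not results here. Each UMI (unique molecular identifier) stands for a single RNA molecule that was captured. Class I neurons were those whose top symbol lay between Olfr543 and Olfr692 by number, and all other Olfr numbers were class II. Of 41911 barcodes, 17878 were assigned, 1166 (6.52%) to class I and 16712 to class II.

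The 4 libraries hold 5′ single-cell RNA from epithelium dissociated with papain. All mice were wild type, of the strain C57BL/6J and 3 months old. There were 2 libraries of females (female 1 and female 2) and 2 of males (male 1 and male 2). No library was treated or mutant, and each is taken as 1 replicate. The labels do not say whether a library held 1 animal or a pool, so p-values measure the spread between these libraries. The libraries held 100725429 to 111577458 UMIs in all.

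Class I receptors resemble the odorant receptors of fish and in the mouse sit together in a single gene cluster, whereas class II receptors are spread over many chromosomes. Each olfactory neuron settles on 1 allele of 1 receptor gene, and neurons that use the same receptor send their axons to shared glomeruli in the olfactory bulb. Neurons of class I receptors lie mainly in the dorsal zone of the epithelium and project to the dorsal bulb, while class II neurons occupy every zone, so a comparison of the classes is also in part a comparison of positions.

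The files list 114 class I genes, and all of them lay on chromosome 7 at chr7:102476579-105369355 (GRCm38, GENCODE M21), a stretch of 2892777 bp. In all, 102 of the 114 were the top receptor of at least 1 neuron, against 857 of 988 class II genes. The 250 bases before the RefSeq start of 3 class I genes are printed with those of Tafa4. Tafa4 set the classes apart most in the comparison given further on. GENCODE M21 places the 3 receptor genes at chr7:103167074-103178340 (Olfr591), chr7:103490025-103498062 (Olfr609) and chr7:102571442-102583011 (Olfr550). Their windows thus lie inside the GENCODE genes, and only the Tafa4 window lies at a GENCODE gene start. Whether the receptor windows hold promoters was not tested. Olfr591 had the most neurons of the class, and Olfr609 and Olfr550 carry the 2 motifs searched for, TAATTA (the core bound by homeodomain factors such as Lhx2) and CCCNNGGG (the core bound by Ebf factors), which are in capitals. The sequences are from RefSeq on GRCm38.p6 and read 5′ to 3′ on the strand of the gene: Olfr591 at chr7:103173636-103173885 (minus), Olfr609 at chr7:103492877-103493126 (minus), Olfr550 at chr7:102578219-102578468 (plus) and Tafa4 at chr6:97060412-97060661 (minus).
Olfr591: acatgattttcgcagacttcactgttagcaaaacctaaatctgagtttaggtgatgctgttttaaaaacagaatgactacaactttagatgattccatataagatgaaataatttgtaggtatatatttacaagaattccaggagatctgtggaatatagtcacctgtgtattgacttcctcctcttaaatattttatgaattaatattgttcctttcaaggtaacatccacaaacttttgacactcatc
Olfr609: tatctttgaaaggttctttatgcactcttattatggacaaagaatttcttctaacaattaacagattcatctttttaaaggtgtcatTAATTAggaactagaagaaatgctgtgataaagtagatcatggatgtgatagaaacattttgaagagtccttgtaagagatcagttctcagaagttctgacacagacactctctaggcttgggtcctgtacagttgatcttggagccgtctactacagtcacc
Olfr550: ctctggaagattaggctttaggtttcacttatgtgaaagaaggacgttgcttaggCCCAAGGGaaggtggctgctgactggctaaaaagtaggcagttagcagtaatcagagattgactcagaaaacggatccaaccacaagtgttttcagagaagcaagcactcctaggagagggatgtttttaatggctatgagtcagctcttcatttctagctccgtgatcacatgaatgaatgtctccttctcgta
Tafa4: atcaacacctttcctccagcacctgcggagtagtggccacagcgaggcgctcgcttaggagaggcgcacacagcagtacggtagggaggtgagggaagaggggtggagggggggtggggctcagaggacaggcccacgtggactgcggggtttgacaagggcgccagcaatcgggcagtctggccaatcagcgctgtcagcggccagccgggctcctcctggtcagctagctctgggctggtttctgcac
On either strand of such windows, TAATTA was found in 15 of 101 for class I genes (14.9%) and in 156 of 843 for class II genes (18.5%). It was found in 4.84% of all 32851 windows. CCCNNGGG was found in 3 class I windows (2.97%), in 23 class II windows (2.73%) and in 11.8% of all windows. The 2 classes thus held each motif in similar shares, and both differed in the same direction from all windows together. A match is a description of letters in this window only.

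Neurons were spread over the whole cluster. The number of neurons per used class I receptor had a median of 9 and a maximum of 45 for Olfr591, against a median of 11 and a maximum of 320 for Olfr536 in class II. Olfr571 had 37 neurons, Olfr672 had 36 and Olfr598 had 34, and neighbours of such receptors could have very few. The receptor transcript, which the rule used, had a median of 62 UMIs per class I neuron and 61 per class II neuron. Few cells sat at the edge of the rule: 4 class I and 32 class II neurons had a top receptor of exactly 3 UMIs, and 321 to 381 barcodes per library passed the Omp and Cyp2g1 limits without a receptor of 3 UMIs. A further 354 to 405 per library failed the 80% share.

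**Figure D1:**
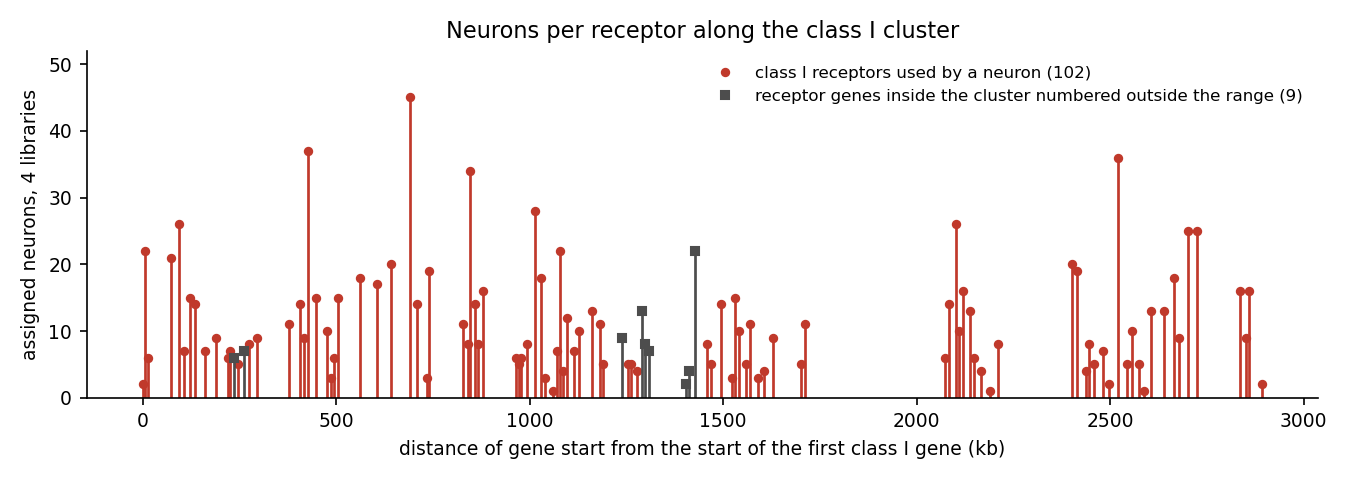
Number of assigned neurons of the 4 libraries (vertical axis) for each receptor gene, against the distance of its start from the start of the first class I gene in kb. Red points are the 102 class I receptors that were used, with Olfr591 highest at 45 neurons, and grey squares are 9 receptor genes inside the cluster whose numbers fall outside the class I range.

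Class I neurons made up 5.59% of assigned neurons in female 1 (253 cells), 5.68% in female 2 (245 cells), 5.73% in male 1 (254 cells) and 9.0% in male 2 (414 cells). Male 2 stood apart and the other 3 libraries were alike. The mean was 5.63% ± 0.0657 in females and 7.36% ± 2.31 in males (SD, n = 2 each), and the exact two-sided permutation test gave p = 0.333, the smallest value that 2 against 2 libraries allow. In male 2 class II neurons also carried dorsal transcripts more often, as given further on. Whether the dissection of that library took in more dorsal tissue was not tested. Male 2 held 414 of the 1166 class I neurons.

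**Figure D2:**
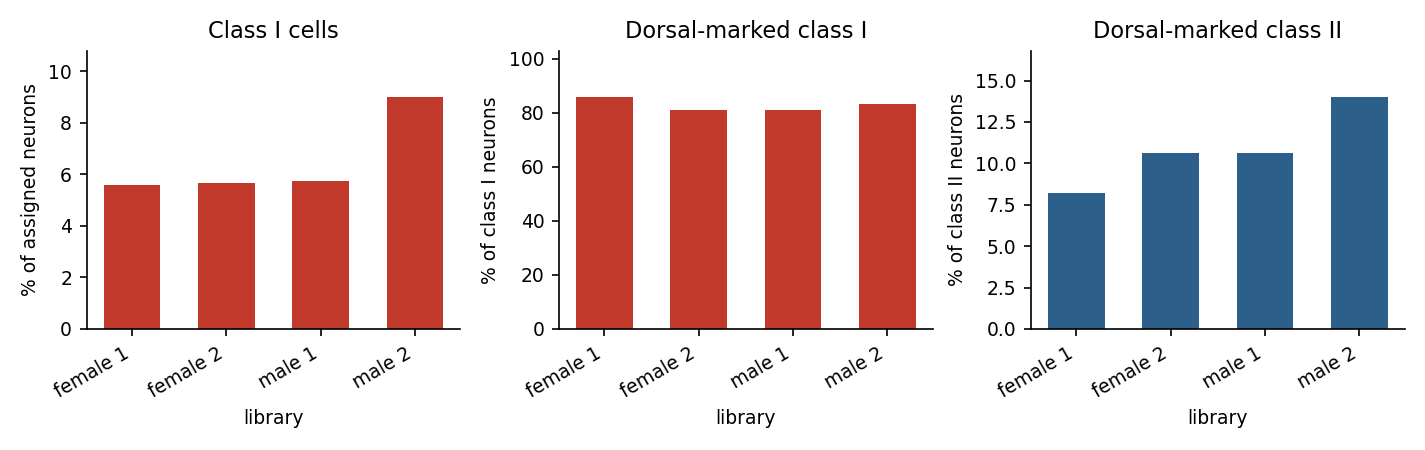
Share of class I neurons among assigned neurons, share of class I neurons that were dorsal-marked, and share of class II neurons that were dorsal-marked (bars, in %), by library. Male 2 is highest in the first and last panels, at 9.0% and 14.0%, and the class I shares in the middle panel lie between 81.1% and 85.8%.

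Markers of mature neurons were high in both classes. The summed level of 8 of them, Omp not among them, was 17500 to 18500 CPM (UMIs of a gene per 1000000 UMIs) in class I and 21200 to 22900 CPM in class II. Of the 8, 4 were called lower in class I, beside 9.14% of all genes. The 9 markers of immature neurons summed to 3090 to 3600 CPM and 3040 to 3250 CPM. Of these, 4 were called higher and 1, Gap43 (-0.58), lower in class I by edgeR (4 and 0 by DESeq2). Over all genes edgeR called 8.29% higher and 9.14% lower. The part of maturity in the class differences was not tested. Median depth was lower in class I neurons in every library, at 7159 to 8302 UMIs against 7877.5 to 8606. Library pairs shared 136 to 172 barcodes, of which 14 to 31 were assigned neurons in both.

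Raw counts were summed per library and class and compared between the classes within libraries. Of 12697 genes other than receptors, 2213 (17.4%) were called at an adjusted p under 0.05 in edgeR's quasi-likelihood test, 1053 higher (8.29%) and 1160 lower (9.14%) in class I. The 4 class I sums lay all above or all below the 4 class II sums for 2896 genes (22.8%). Without male 2 the test called 1262 genes, and without female 2 it called 1433. The median log2 fold change over all genes was -0.01.

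Tafa4 (ENSMUSG00000046500, chr6:96831203-97060413, minus strand), which encodes a small secreted protein related to chemokines, was the gene with the largest rise in class I. It stood at 45.7, 23.2, 24.3 and 27.9 CPM in the class I sums of female 1, female 2, male 1 and male 2, and at 0.182, 0.171, 0.266 and 0.181 CPM in class II. The groups were far apart: the log2 fold change was 7.17 ± 0.35 (standard error), and edgeR gave an adjusted p of 2.04e-08. Its UMIs came from many class I receptors: 75 of the 102 had at least 1, and the receptor with the most, Olfr591, held 6.37% of them. All class II neurons together held 28 UMIs of Tafa4, and 12 of these (42.9%) were in neurons of the 9 receptor genes that lie inside the class I cluster but carry other numbers.

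Adgrv1, a very large adhesion receptor, and the calcium-binding protein gene S100z followed. Adgrv1 stood at 18.8, 25.4, 16.9 and 23.5 CPM in class I and at 0.808, 0.798, 0.59 and 0.816 CPM in class II, with no overlap (log2 fold change 4.79 ± 0.30, edgeR adjusted p = 1.64e-07). S100z stood at 18.4 to 26.2 CPM against 1.08 to 1.89 CPM, with a log2 fold change of 3.90. Here 17.9% of the class I UMIs came from the receptor Olfr550. In class II the receptors with the most UMIs were Olfr243 for Tafa4, Olfr69 for Adgrv1 and Olfr65 for S100z, all 3 of them inside the class I cluster.

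Nqo1, a quinone reductase long used as a marker of the dorsal zone, was the most abundant of the strongly raised genes. Its level was 1850, 1690, 1920 and 1750 CPM in class I and 160, 156, 139 and 223 CPM in class II in the same library order. Acsm4, an acyl-CoA synthetase of the same zone, stood at 535, 402, 478 and 489 CPM against 46.3, 50.6, 51.0 and 68.4 CPM. Neither gene overlapped between the classes, and the log2 fold changes were 3.43 ± 0.10 and 3.14 ± 0.09. In class II both were highest in male 2, the library with the most dorsal-marked class II neurons. That mark, defined further on, rests on UMIs of these same genes, so the 2 observations are not independent.

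Further genes higher in class I were Tmem52, a small membrane protein, at 23.7 ± 4.90 CPM against 2.01 ± 0.383 (mean ± SD, n = 4 libraries) and Col27a1, a fibrillar collagen, at 39.1 to 61.2 CPM against 5.60 to 8.43. Bhlhe40, a transcriptional repressor with a part in circadian control, stood at 74.2 ± 19.2 CPM against 11.6 ± 1.79. Bmp3, a ligand of the bone morphogenetic protein family, stood at 33.1 to 44.3 CPM against 6.62 to 7.98. Their log2 fold changes were 3.56, 2.81, 2.66 and 2.43. The others of the 15 genes with the largest rises were Nppc, which encodes C-type natriuretic peptide (2.30), Ptprn2, a protein of secretory vesicles (2.23), Hs3st3b1, a heparan sulfate sulfotransferase (2.79), Glyatl3 (2.81), H2-M10.3, a nonclassical histocompatibility gene of a family of close copies (2.82), and Fxyd2, a subunit that modulates the sodium pump (3.51). All 4 libraries of each gene were higher in class I.

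Some of these rises were shared by most class I receptors and others rested on few. Over the 49 class I receptors with 10 or more neurons, which hold 873 cells, Tafa4 was detected in 45, Bmp3 in 42 and Tmem52 in 40. The median class II receptor stood at 0 for each, so these counts compare detection only. Of 465 class II receptors with 10 or more neurons, 454 had no UMI of Tafa4, 239 none of Bmp3 and 311 none of Tmem52. Bhlhe40 was above the median class II receptor of 4.52 CPM in 32, and its highest receptor, Olfr656, held 12.8% of the UMIs. Fxyd2 was detected in 13 of the 49, and 336 of the 465 class II receptors had no UMI of Fxyd2. The receptor Olfr613 held 55.7% of its class I UMIs, a single cell held 16.6%, and the library values ran from 37.7 CPM in female 1 to 324 CPM in female 2. H2-M10.3 owed 27.2% of its class I UMIs to Olfr571.

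Among the genes lower in class I were Nfix (ENSMUSG00000001911, chr8:84699876-84800344, minus strand), a transcription factor of the nuclear factor I family, Pdlim1, an adaptor of the actin cytoskeleton, and Sytl1, an effector of vesicle traffic. Nfix stood at 33.0, 29.2, 36.9 and 22.1 CPM in class I and at 244, 233, 258 and 219 CPM in class II (log2 fold change -3.0 ± 0.07, edgeR adjusted p = 5.53e-11). Pdlim1 stood at 4.24 to 7.91 CPM against 67.6 to 90.2 CPM, and Sytl1 at 13.2 to 24.3 against 123 to 139. The groups did not overlap for any of the 3. Over the 49 class I receptors, Pdlim1 and Sytl1 were below the median class II receptor in all 49 and Nfix in 48.

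Similar in this respect were Ppp1r3b, a glycogen-targeting subunit of protein phosphatase (log2 fold change -3.68), Plxnb3, a semaphorin receptor (-3.34), Frem2, a protein of the extracellular matrix (-3.16), and C130074G19Rik (-3.11). Also lower were Ifi27 (-3.10), Mdga2, an adhesion protein that binds neuroligins (-3.09), and Dnaic2, a dynein chain (-2.97). In class II the receptor with the most UMIs held between 2.94% and 6.64% of them for these genes. Slurp2, a small secreted protein (-3.14), differed from them in that the receptor Olfr1507 held 49.2% of its class II UMIs.

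Avp, which encodes vasopressin and its carrier protein, stood at 1.88, 2.76, 1.58 and 3.75 CPM in class I and at 65.9, 65.4, 60.4 and 135 CPM in class II (log2 fold change -5.06 ± 0.13, edgeR adjusted p = 7.43e-11). The class II level came from few receptors. Olfr1346 held 53.2% of it, and its 80 neurons stood at 7100 CPM, followed by Olfr729 with 3280 CPM and Olfr741 with 1710 CPM. The median class II receptor and the median class I receptor were both at 0.

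The other falls among the 15 largest came from a handful of cells. Hbb-bs and Hbb-bt, near-identical beta-globin genes of red blood cells, had log2 fold changes of -3.59 and -3.78, and their sums did not overlap between the classes. Yet 10 class II neurons with 100 or more UMIs held 91.8% of the 23759 Hbb-bs UMIs of class II. Without those 10 cells, chosen after the values were seen, Hbb-bs stood at 13.9 CPM in class II and 13.6 CPM in class I, without TMM scaling. For Hbb-bt the 6 such cells held 86.0%, and the levels without them were 3.59 and 1.81 CPM. Among dorsal-marked neurons the log2 difference of Hbb-bs was -0.03. Spp1, the gene of osteopontin, had 2 UMIs in class I and 2251 in class II, a ratio of 71.4 (exact 95% interval 19.8 to 590, counting error only). Here 4 class II cells held 96.0% of the UMIs, a single one 43.5%, and the call was lost without the library block (edgeR adjusted p = 0.141).

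Both globins lie inside the class I cluster. Of 27 genes in the cluster that are not receptors, 5 passed the filter on low counts, and these 2 alone were called. Hbb-bs lies at chr7:103826534-103828096 and Hbb-bt at chr7:103812524-103813996, both on the minus strand. Trim21 (log2 fold change -2.01, 3 UMIs in class I, all in male 1, without which it was called), Trim68 (0.46) and Trim12c (0.34) were not called. All 3 are ubiquitin ligases of the tripartite motif family. No gene of the cluster other than the receptors was called higher in class I.

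The lists of zone genes separated the classes. All 4 dorsal genes tested were called higher and all 6 ventral genes lower (8.29% and 9.14% of all genes), and the medians were 2.23 and -1.85 on the log2 scale. Robo2, an axon guidance receptor of dorsal neurons, stood at 211, 224, 234 and 210 CPM in class I against 86.2, 82.9, 95.7 and 87.7 CPM. Sema3f, a repellent ligand of dorsal axons, was higher by 0.59 and was not called without male 2 (0.43, edgeR adjusted p = 0.0949). Ncam2, the adhesion molecule also known as OCAM, stood at 36.2, 43.0, 44.8 and 32.0 CPM against 185, 185, 198 and 185 CPM. Nrp2, a Sema3f receptor of ventral axons, stood at 31.7 to 54.6 CPM against 138 to 161 CPM. The log2 fold changes of the other ventral genes were -1.87 for Nfib, -1.29 for Nfia and -0.89 for Slit1, a ligand of Robo receptors. No zone gene overlapped between the classes.

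**Figure D3:**
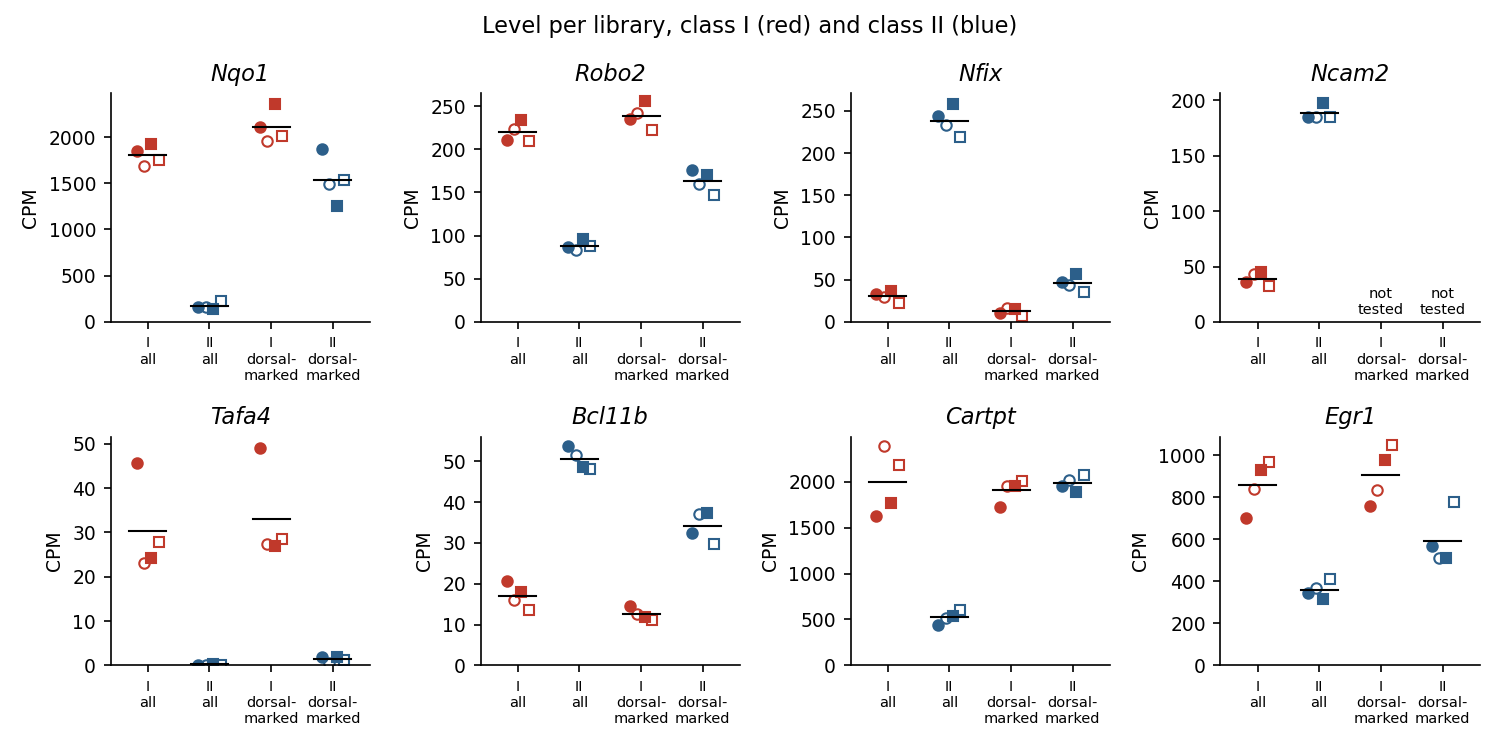
Level in CPM (vertical axes, from 0) of 8 genes in each library, for all class I (red) and class II (blue) neurons and for the dorsal-marked neurons of each class. Filled circles are female 1, open circles female 2, filled squares male 1, open squares male 2, and black lines are means. Cartpt separates the classes among all neurons but not among dorsal-marked neurons, whereas Tafa4, Bcl11b and Nfix separate them in both.

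Among the 49 class I receptors with 10 or more neurons, 2 were above the median class II receptor in the ventral gene Ncam2 (195 CPM). Both had low levels of the dorsal genes Nqo1 and Acsm4. In the ventral gene Nfix only Olfr686 was above the median class II receptor (240 CPM). The 25 neurons of Olfr686, spread as 7, 6, 5 and 7 over the libraries, had no UMI of Nqo1, 11.4 CPM of Acsm4, 273 CPM of Ncam2 and 250 CPM of Nfix. Other zone genes of Olfr686 differed: Nrp2 stood at 68.3 CPM and Nfib at 45.5 CPM, below the medians of class II receptors (94.8 and 104 CPM), Nfia had no UMI, and the dorsal gene Robo2 stood at 125 CPM, above the class II median of 95.7 CPM. The 37 neurons of Olfr571, spread as 11, 5, 10 and 11, had 127 CPM of Nqo1, 25.5 CPM of Acsm4 and 303 CPM of Ncam2. They also had 329 CPM of Nrp2 and 70.8 CPM of Robo2. Their Nfix (130 CPM) and Nfib (79.3 CPM) lay below the class II medians of 240 and 104 CPM, and Olfr653 had 115 CPM of Nfix. Neither Olfr686 nor Olfr571 had a UMI of Tafa4. Among the other 47 class I receptors with 10 or more neurons, the lowest Acsm4 level was 251 CPM and the highest Ncam2 level 92.4 CPM. Among receptors with fewer neurons, the 9 neurons of Olfr556 had no UMI of Nqo1, 25.7 CPM of Acsm4, 129 CPM of Ncam2 and 116 CPM of Nfix, and the 4 of Olfr645 had 345 CPM of Ncam2 with 2620 CPM of Nqo1. Olfr691, Olfr575 and Olfr578 also had low Nqo1, at 79.7, 124 and 131 CPM, but their Acsm4 levels were 492, 631 and 507 CPM. The receptors were picked out after their values were seen, and no test was made of them.

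**Figure D4:**
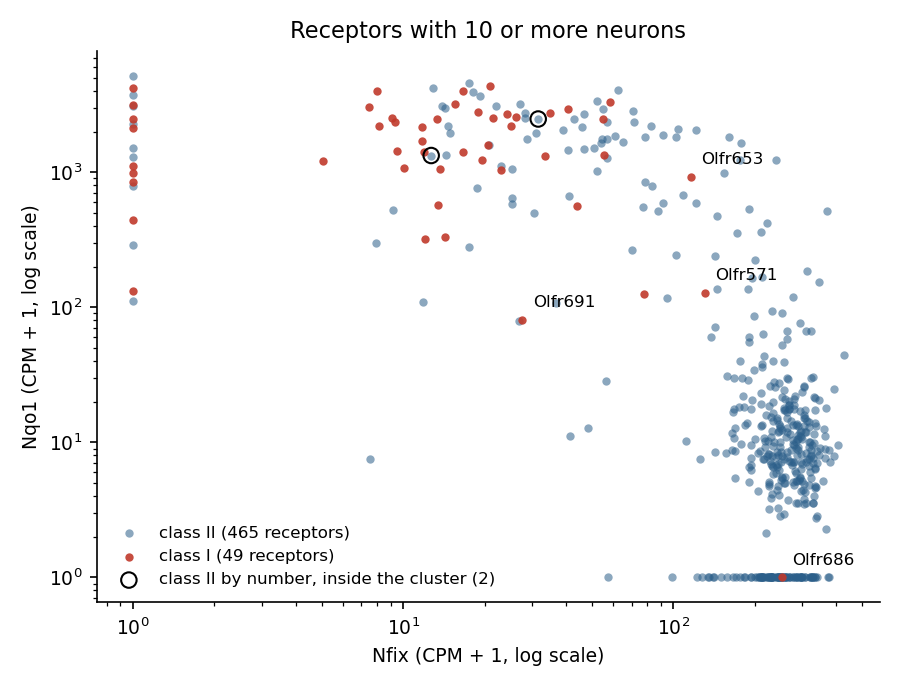
Nqo1 level against Nfix level, each as CPM + 1 on a log axis, for every receptor with 10 or more neurons (49 class I in red, 465 class II in blue). Most class I receptors lie at the upper left among the dorsal class II receptors, and Olfr686, Olfr571 and Olfr653 lie further right. The circled class II points are Olfr65 and Olfr69, which sit inside the class I cluster.

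To compare the classes within a like position, neurons of both classes were kept when they had 2 or more UMIs of Nqo1 plus Acsm4 and none of Ncam2. These 3 genes were then given no test. The dorsal-marked neurons numbered 966 (82.8%) of class I and 1816 (10.9%) of class II. The class I share was 85.8%, 81.2%, 81.1% and 83.1%, and the class II share 8.21%, 10.6%, 10.6% and 14.0%. Of the 200 class I neurons left out, 61 (30.5%) used Olfr571 or Olfr686. The class II neurons that were kept had a mean of 1540 CPM of Nqo1, against 2110 CPM in those of class I.

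Within these neurons 489 of 10123 genes (4.83%) were called by edgeR, 246 higher (2.43%) and 243 lower (2.40%) in class I. DESeq2 called 133, and edgeR without the library as a block called 245. Without male 2 it called 289. For 780 genes (7.71%) the class I and class II sums did not overlap.

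Tafa4 was again the gene with the largest rise. It stood at 49.1, 27.3, 27.0 and 28.6 CPM in dorsal-marked class I and at 1.83, 0.632, 1.90 and 1.19 CPM in dorsal-marked class II (log2 fold change 4.52 ± 0.25, edgeR adjusted p = 7.38e-09). Tmem52 (2.69), Bhlhe40 (2.46), Adgrv1 (2.34) and S100z (2.31) also passed in this comparison. Cdh26, a cadherin, stood at 36.2, 35.7, 35.3 and 26.6 CPM against 6.60, 6.32, 8.56 and 5.46 CPM, without overlap. Receptors inside the class I cluster again held the most class II UMIs for several of these, though the counts were low. Olfr243 held 22.2% of 18 Tafa4 UMIs and Olfr69 7.81% of 64 Adgrv1 UMIs. Olfr65 held 25.0% of 60 S100z UMIs and 13.5% of 200 Bhlhe40 UMIs. Scg2, a granin of secretory vesicles (2.95), and Neurod1, a factor of neuronal precursors (2.59), rested on few cells, since a single class I cell held 32.9% and 36.5% of their UMIs.

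Pcdh7, a protocadherin, showed the clearest fall among dorsal-marked neurons. It stood at 13.9, 22.4, 15.9 and 18.3 CPM in class I against 92.8, 85.9, 112 and 92.9 CPM (log2 fold change -2.44 ± 0.12, edgeR adjusted p = 2.17e-09). Among all neurons its difference was -1.11, with 37.3 against 79.2 CPM. The other 7 large falls included genes whose UMIs lay in few cells. Avp had a log2 fold change of -4.13, but a single class II cell held 77.3% of its UMIs, and without male 2 it was not called (-1.94, edgeR adjusted p = 0.0833). Igfbp7, a secreted binding protein (-2.21), was likewise not called without male 2 (edgeR adjusted p = 0.147). For Apod (-2.98) and Apoe (-2.26), both lipid carriers, a single class II cell held 58.3% and 28.0%. Krt17, a keratin of epithelial cells, stood at a mean of 3.16 against 18.5 CPM (-2.57), Aldh3a1, an aldehyde dehydrogenase, at 2.39 against 10.7 CPM (-2.09), and Fxyd3 at 2.53 against 10.8 CPM (-2.04). Krt5, a marker of horizontal basal cells, was lower with them in 3 of 4 libraries (-2.29), as both tested markers of that cell type were by edgeR and neither by DESeq2, and the part of RNA from those cells was not tested. DESeq2 did not call Avp, Apod, Apoe or Aldh3a1.

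Of the zone genes not used to choose these neurons, 2 of 7 were called in this comparison, beside 4.83% of all genes. Robo2 remained higher in class I, at 235, 242, 256 and 222 CPM against 176, 160, 170 and 147 CPM (log2 fold change 0.55 ± 0.05, edgeR adjusted p = 1.42e-06). Nfix remained lower, at 10.6, 16.1, 15.2 and 7.47 CPM against 47.3, 43.3, 56.4 and 35.9 CPM (-1.93 ± 0.15, edgeR adjusted p = 3.67e-07). Neither overlapped between the classes. Sema3f (0.05), Nrp2 (-0.62), Nfia (0.55), Nfib (0.07) and Slit1 (-0.17) were not called, although Nrp2 was called lower under 6 of the other settings. Nfib was called lower when 1 or more UMIs of Nqo1 plus Acsm4 sufficed (-0.79, edgeR adjusted p = 0.0108).

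Among the factors and chromatin proteins linked to receptor choice, Bcl11b, a zinc-finger factor known to govern the choice between the receptor classes, had the largest called difference. It (ENSMUSG00000048251, chr12:107910403-108003602) stood at 20.7, 16, 17.9 and 13.6 CPM in class I and at 53.8, 51.4, 48.7 and 48.1 CPM in class II (log2 fold change -1.58 ± 0.10, edgeR adjusted p = 2.07e-07). Among dorsal-marked neurons it stood at 14.5, 12.6, 11.8 and 11.2 CPM against 32.3, 37.0, 37.4 and 29.7 CPM (-1.43 ± 0.14, edgeR adjusted p = 6.88e-06). The groups overlapped in neither comparison, and 47 of the 49 class I receptors were below the median class II receptor, with Olfr552 highest at 108 CPM. Of 19 members tested, 1 was called higher and 2 lower, where 17.4% of all genes were called, and of 18 among dorsal-marked neurons 1 was called, and it was lower, while edgeR gave 7 an unadjusted p under 0.05. The other 2 calls, Ldb1, a cofactor of Lhx2 (-0.24), and Ebf4 (0.16), were lost without male 2 (edgeR adjusted p = 0.0743 and 0.15), and that of Ebf4 also without female 1, without female 2 and in DESeq2. Lhx2, a homeodomain factor needed for receptor transcription, stood at 316 to 352 CPM in class I against 331 to 351 CPM and was not called (-0.05).

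Of 7 genes of receptor transport and folding, 1 was called higher and 1 lower, beside 17.4% of all genes called. Reep6 was higher by 0.58, and Ric8b, which assists the olfactory G protein, stood at 1440 CPM against 1610 CPM (log2 fold change -0.16). Reep6 was not called without female 1 (0.48, edgeR adjusted p = 0.0525), and Ric8b was not called without female 2 or without male 2 (both -0.17, edgeR adjusted p = 0.0652 and 0.0843). The transporter genes Rtp1 (0.02) and Rtp2 (0.07), whose proteins carry receptors to the cell surface, were not called. Among dorsal-marked neurons the only call was Hspa1a, a heat-shock protein, at 35.1 to 46.9 CPM against 63.5 to 104 CPM (-1.04).

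Odorant transduction runs from the receptor through the G protein Gnal and the cyclase Adcy3 to the cyclic-nucleotide channel and the chloride channel Ano2. Of 24 genes of this path, 6 were called higher and 7 lower in class I (8.29% and 9.14% of all genes), with a median log2 difference of -0.03. Gnal (-0.02), Adcy3 (-0.05) and Gng13 (-0.08), the first steps, were not called. All 3 channel subunits were called lower: Cnga2 (-0.32), Cnga4 (-0.20) and Cngb1 (-0.32). Stoml3, a stomatin-like protein of the cilia, was at 7500, 7050, 6650 and 7050 CPM against 10000, 9880, 10200 and 9710 CPM (-0.50 ± 0.04, edgeR adjusted p = 2.31e-06), with no overlap. Ano2 (-0.35) and the phosphodiesterases Pde1c (-0.32) and Pde4a (-0.17) complete the 7.

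Higher in class I were Itpr1, an intracellular calcium-release channel, at 27.3, 25.9, 28.5 and 30.7 CPM against 9.93, 9.26, 9.03 and 9.55 CPM (1.57 ± 0.13, edgeR adjusted p = 2.45e-06), and Pde2a, a cGMP-stimulated phosphodiesterase (2.26). A single class I cell held 35.1% of the 74 class I UMIs of Pde2a, and its rise was not called with at most 5 cells per receptor and library. Smaller rises were found for Slc12a2, which loads the neuron with chloride (0.45), Slc24a4, a sodium-calcium exchanger (0.43), Calm2 (0.42) and Camk2d (0.17). Among dorsal-marked neurons edgeR called 3 of 22 higher and 5 lower, where 4.83% of all genes were called, and DESeq2 called 1 higher and 3 lower. The 3 channel subunits and Stoml3 (-0.37) were again lower, as was Gnal (-0.12), and Itpr1 was again higher (0.83). DESeq2 did not call Itpr1 (adjusted p = 0.176), Cngb1 (0.337) or Gnal (0.107) there, and edgeR without the library block did not call Cnga2, Cngb1 or Gnal. Gnal was also not called without male 2 (-0.13, edgeR adjusted p = 0.056). Among all neurons the calls of Cnga4 (-0.21), Pde4a (-0.19) and Camk2d (0.18) were lost without male 2 (edgeR adjusted p = 0.0894, 0.0582 and 0.0845). They were also lost without female 2, those of Pde4a and Camk2d without female 1, and that of Cnga4 without male 1. With at most 5 cells per receptor and library Pde4a was at -0.04 and Camk2d at 0.10, and neither was called.

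Among 25 genes of axon guidance and sorting, 4 were called higher and 8 lower (8.29% and 9.14% of all genes). Nrp1, a semaphorin receptor that orders axons along the anterior-posterior axis, was at 19.3, 19.3, 23.7 and 16 CPM against 48.5, 45.3, 50 and 46.5 CPM, and its ligand Sema3a was higher at 19.6 ± 4.28 against 8.13 ± 0.62 CPM. The log2 fold changes were -1.30 and 1.27, and neither overlapped. Nrp1 kept its difference among dorsal-marked neurons (-1.39), while Sema3a was not called there (0.67, edgeR adjusted p = 0.0545). Kirrel3, an adhesion protein of glomerular sorting, behaved differently in the 2 comparisons. It was not called among all neurons (-0.10), and among dorsal-marked neurons it stood at 95.4, 87.5, 80.4 and 95 CPM against 179, 156, 125 and 150 CPM (-0.76). Kirrel2 was lower among all neurons (-0.31) and not called among dorsal-marked ones (0.08). Of 22 members tested among dorsal-marked neurons, edgeR called 1 higher and 5 lower (2.43% and 2.40% of all genes), and DESeq2 called 4, all lower. Epha5 (-0.38) and Efnb1 (1.40) were also called among all neurons only, and Efna3 (-0.27) and Pcdh10 (0.45) among dorsal-marked neurons only. Pcdh10 was not called without male 1 (0.33, edgeR adjusted p = 0.0582) or in DESeq2, and neither was called without the library block. The difference between the 2 comparisons was not tested.

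Neurexins are presynaptic organizers named in the title of the series. Nrxn2 was lower at 13.8 ± 4.11 against 19.3 ± 1.03 CPM (-0.53 ± 0.16, edgeR adjusted p = 0.0358), but the sums overlapped and the call was lost without male 2 (-0.40, edgeR adjusted p = 0.245), without female 1 and in DESeq2. Of 13 neurexins and partners tested, 4 were called by edgeR, all of them lower (9.14% of all genes), and 3 of 13 were higher at an unadjusted p under 0.05. DESeq2 called 3, also lower. The other edgeR calls were Ptprd, a receptor phosphatase (-1.25, at 3.14 CPM in class I), Clstn3 (-1.0) and Adgrl2, a latrophilin (-0.54). The last 2 were not called without male 2 (-0.76 and -0.40, edgeR adjusted p = 0.074 and 0.0573). Ptprd was not called with at most 5 cells per receptor and library (-0.77, edgeR adjusted p = 0.145). Among dorsal-marked neurons only Clstn1, a calsyntenin, was called (0.17), though not without the library block.

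Of 12 genes linked to neuronal activity, 7 were called higher and 1 lower in class I (8.29% and 9.14% of all genes), with a median of 0.46. Among dorsal-marked neurons edgeR called 7 of 10 higher and 2 lower (2.43% and 2.40% of all genes), with a median of 0.36, and DESeq2 called 5 higher and 1 lower. Egr1, an immediate-early transcription factor, stood at 701, 839, 928 and 969 CPM against 344, 367, 314 and 410 CPM (1.26 ± 0.07, edgeR adjusted p = 4.27e-08). Fos stood at 1030, 1470, 1510 and 1460 CPM against 731, 743, 637 and 772 CPM (0.91 ± 0.09). Neither overlapped. Junb (0.69), Fosb (0.55), S100a5 (0.47), Pcp4l1 (0.46) and H2bc21 (0.20) followed, and Calb2, a calcium buffer, was lower (-0.60). Among dorsal-marked neurons Egr1 (0.62), Fos (0.60), Junb (0.54) and Fosb (0.46) were also higher, with libraries of the classes that overlapped, and Calb2 (-0.88) and Arc (-1.79) lower. S100a5, Pcp4l1 and H2bc21 were the other higher calls there. DESeq2 did not call Junb (adjusted p = 0.162), Pcp4l1 (0.191) or Arc (0.151) there. Without the library block Fosb, S100a5, Pcp4l1 and H2bc21 were not called there (edgeR adjusted p = 0.107, 0.164, 0.173 and 0.0649). Among all neurons H2bc21 was not called with at most 5 cells per receptor and library (0.09, edgeR adjusted p = 0.21).

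Of 14 genes of transmitter release, 4 were higher and 3 lower, beside 17.4% of all genes called, led by the calcium channel Cacna1a at 3.73 ± 1.10 against 15.2 ± 0.366 CPM (-2.02) and the complexin Cplx2 (0.45), and none of 12 was called among dorsal-marked neurons by edgeR or by DESeq2, with 5 at an unadjusted p under 0.05 in edgeR. Of 19 potassium and sodium channels, 1 was higher and 4 lower by edgeR (8.29% and 9.14% of all genes) and 3 were lower by DESeq2. Kcna1 was the largest (-1.37). DESeq2 did not call Kcnk10 (0.29, adjusted p = 0.0815) or Scn3a (-0.37, adjusted p = 0.123). Without male 2, Scn3a, Kcnn2 and Kcna5 were not called (edgeR adjusted p = 0.0762, 0.0898 and 0.0887). Of 15 tested among dorsal-marked neurons, only Scn9a, a sodium channel of olfactory axons, was called (-0.26), beside 4.83% of all genes.

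Of 21 genes of xenobiotic and redox metabolism, Nqo1 not included, 1 was higher and 4 lower, beside 17.4% of all genes called, with a median of -0.37. Among dorsal-marked neurons 7 of 19 were called by edgeR and 5 by DESeq2, all lower (median -0.27), beside 4.83% of all genes. Among all neurons Ephx1, an epoxide hydrolase, stood at 30.4 ± 9.52 against 98.4 ± 19.7 CPM (-1.65) and Prdx1, a peroxiredoxin, at 206 ± 17.3 against 350 ± 7.22 CPM (-0.77). Among dorsal-marked neurons DESeq2 did not call Ephx1 (-0.77, adjusted p = 0.171). Several members, such as Cbr2 (-0.98 among dorsal-marked neurons) and Gstm1 (-0.64, not called there by DESeq2), are abundant in sustentacular cells. The summed level of 7 sustentacular markers was 385 to 675 CPM in class I and 495 to 690 CPM in class II, and none of the 7 was called in either comparison by edgeR or DESeq2 (1 and 2 at an unadjusted p under 0.05 in edgeR). The part of RNA from those cells in these values was not tested.

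A last list held genes known from these data to vary from receptor to receptor, so calls between groups of receptors were likely beforehand. All 10 were called, 3 higher and 7 lower, where 17.4% of all genes were called. Among dorsal-marked neurons edgeR called 1 of the 10 higher and 4 lower, where 4.83% of all genes were called. DESeq2 called 1 higher and 2 lower there. Cartpt, which encodes a neuropeptide precursor, stood at 1630, 2390, 1770 and 2180 CPM in class I against 437, 512, 542 and 600 CPM (1.92 ± 0.07, edgeR adjusted p = 8.18e-10). Among dorsal-marked neurons it stood at 1730, 1950, 1950 and 2010 CPM against 1950, 2020, 1890 and 2070 CPM and was not called (-0.06). The levels of the classes overlapped there. All 49 class I receptors with 10 or more neurons were above the median class II receptor of 435 CPM, the lowest being Olfr571 at 697 CPM.

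Cd55, a complement regulator, was higher in both comparisons (1.0 and 1.40), at 291, 477, 508 and 322 CPM against 156, 154, 168 and 122 CPM among dorsal-marked neurons. Mslnl, a mesothelin-like protein (-0.88 and -1.03), and Adam28, a membrane protease (-1.06 and -1.19), were lower in both. Cidea, a lipid-droplet protein, had log2 fold changes of -2.20 among all neurons and -0.74 among dorsal-marked ones, and the second call was lost under 8 other settings, among them without male 2 (-0.66, edgeR adjusted p = 0.168).

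**Figure D5:**
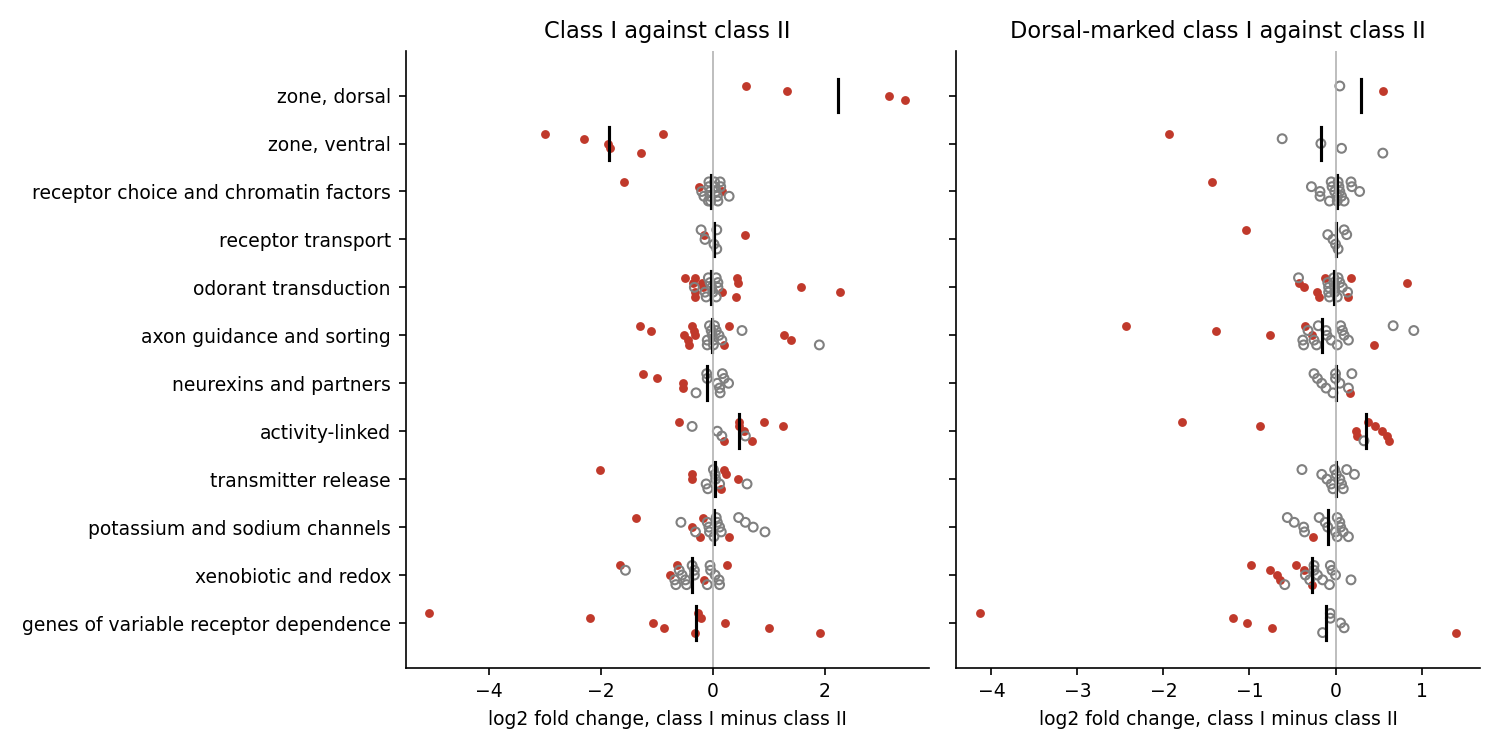
Log2 fold change (class I minus class II, horizontal axes) of each tested member of the 12 gene lists, among all neurons (left) and among dorsal-marked neurons (right). Red points passed an adjusted p of 0.05 in edgeR, open points did not, and black bars are list medians over the members tested in that comparison. Nqo1, Acsm4 and Ncam2, which chose the dorsal-marked neurons, are on the left only, so the medians of the zone lists, 2.23 and -1.85 on the left and 0.30 and -0.17 on the right, are over different genes.

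Car2, a carbonic anhydrase, was far higher in the pooled neurons of a few class I receptors than in those of the others. It was chosen after its values were seen. It was higher in class I among all neurons (1.46, at 34.4, 167, 201 and 309 CPM against 58.5 to 63.2 CPM) and lower among dorsal-marked ones (-1.18, at 22.4 to 31.2 CPM against 52 to 62.7 CPM). The 26 neurons of Olfr550 stood at 4460 CPM, the 9 of Olfr556 at 3680 CPM and the 18 of Olfr683 at 1790 CPM. Olfr550 and Olfr683 also had 2570 and 2520 CPM of the dorsal gene Nqo1, yet dorsal-marked class I neurons together had only 22.4 to 31.2 CPM of Car2. The pooled levels thus need not be those of a typical neuron of these receptors. Whether few cells of these receptors held the UMIs was not tested. The median class I receptor stood at 20.5 CPM and the median class II receptor at 60.8 CPM, and 41 of 49 class I receptors were below the latter.

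The 9 receptor genes inside the cluster with other numbers, Olfr33, Olfr64, Olfr65, Olfr66, Olfr67, Olfr68, Olfr69, Olfr78 and Olfr243, were counted as class II by the rule. Their 78 neurons were dorsal-marked in 64 cases (82.1%), close to the 82.8% of class I and far from the 10.9% of class II. As a description of summed counts, they stood at 20.0 CPM of Tafa4, against 30.2 CPM in class I and 0.115 CPM in the rest of class II, and at 20.0 CPM of Adgrv1, against 21.1 and 0.677 CPM. Their Nfix level was 13.3 CPM, against 29.1 and 241 CPM, and their Bcl11b level 16.7 CPM, against 16.6 and 51.1 CPM. In each of these genes they lay nearer class I. They differed from class I in Avp, at 40.0 CPM against 2.60 CPM, and in Cdh26, at 3.33 CPM against 29.8 CPM. With class I taken by position instead of number, edgeR called 2315 genes among all neurons and 539 among dorsal-marked ones.

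Class I receptors also differed among themselves. The 6 receptors with 5 or more neurons in every library, Olfr571, Olfr591, Olfr598, Olfr653, Olfr672 and Olfr686, were compared over 24 sums, and 380 of 7935 genes (4.79%) were called by edgeR's F test over receptors, or 243 without male 2. Pcp4l1, a calmodulin-binding protein, ranged from a mean of 103 CPM in Olfr686 and 330 CPM in Olfr672 to 5900 CPM in Olfr598 and 6680 CPM in Olfr571. Over the 4 libraries it stayed between 5370 and 7970 CPM in Olfr571 and between 33.0 and 212 CPM in Olfr686, so these did not overlap. S100a5, a calcium-binding protein of active olfactory neurons, followed a like order, with 3020 CPM in Olfr686, 4090 CPM in Olfr672 and 30900 CPM in Olfr571.

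Of the other genes with the lowest p, Cd55 stood at 1020 CPM in Olfr591 and at 17.8 to 197 CPM in the other 5, and Pcdh8, a protocadherin, at 617 CPM in Olfr571 against 19.2 CPM in Olfr591. S100a6 was highest in Olfr571 at 527 CPM. Egr1 ranged from 174 CPM in Olfr571 to 1680 CPM in Olfr653, whose libraries spread from 814 to 3300 CPM. By their means over the 4 libraries, Nqo1 and Acsm4 set Olfr686 (0 and 10.8 CPM) and Olfr571 (250 and 50.6 CPM) below Olfr653 (993 and 272 CPM), Olfr598 (1220 and 461 CPM), Olfr591 (3200 and 501 CPM) and Olfr672 (4190 and 626 CPM). The libraries of Olfr571 spread from 0 to 989 CPM for Nqo1, which overlapped Olfr653 (775 to 1210 CPM), and from 0 to 202 CPM for Acsm4. The 127 and 25.5 CPM given earlier for Olfr571 are from its pooled neurons. All 8 genes had edgeR adjusted p-values of 4.37e-18 or lower and were called under every other setting that was run.

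The class difference was also compared between the sexes. Of 12697 genes, 3 (0.0236%) had a class I minus class II difference that was higher in males than in females by edgeR's interaction test, with 552 at an unadjusted p under 0.05. Leaving out female 1, female 2, male 1 or male 2 gave 11, 13, 6 and 79 calls. Gstm1, a glutathione transferase, stood at 64.0 and 83.3 CPM in class I of the females and at 221 and 234 CPM in class I of the males, against 311, 250, 155 and 241 CPM in class II (interaction 2.15, edgeR adjusted p = 0.00787). Sec14l3, a lipid-transfer protein (1.31), and Cyp4b1, a cytochrome P450 (3.5), had the same order in class I. Sec14l3 is in the list of sustentacular markers, whose summed level in class I was 385, 463, 602 and 675 CPM in the same library order, and their part in this result was not tested. None of the 3 was called without the library as a block, and Cyp4b1 was not called without female 1.

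Markers of other cell types were found in both classes. Summed markers of horizontal basal cells were at 1.11 to 19.3 CPM in class I and 16.4 to 45.5 CPM in class II, and Krt5 was called lower (-1.53). Immune markers were at 30.2 to 141 CPM and 59.9 to 168 CPM, with Cd79a at 0 in class I. Markers of Bowman glands were at 324 to 4510 CPM in class I, where male 1 was highest, and 966 to 1780 CPM in class II. A list named for trace amine or vomeronasal neurons, which also held Gucy2d, Car2 and Pde2a, was at 601 to 875 CPM and 533 to 572 CPM. Pde2a is in the odorant transduction list as well, so calls of Car2 and Pde2a are not particular to trace amine or vomeronasal neurons. Of the 4 tested, edgeR called 3 higher in class I, Gnao1 (0.16), Car2 (1.46) and Pde2a (2.26), and DESeq2 called 2. Over all genes edgeR called 8.29% higher. Car2 was high in the pooled neurons of a few receptors, and a single cell held 35.1% of the class I UMIs of Pde2a. Red blood cell markers were at 4.23 to 23.5 CPM in class I and 148 to 255 CPM in class II. Of the class II UMIs of Hbb-bs, however, 10 neurons held 91.8%. Hba-a2, with no UMI in class I, was at least 6.83-fold lower there (against a floor of 3 counts over the class). That bound covers counting error only and does not allow for UMIs that lie in few cells.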

How the data were processed

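The authors deposited raw UMI counts per gene and barcode for 4 libraries, made with Cell Ranger 6.0.2 per the file headers (5.0.1 per the submitters' processing notes) on mm10 per the same notes. The cell-calling rule is not given in the sources used here. Positions are from GENCODE M21 on GRCm38, in which 22285 of 22399 gene IDs were found.

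Barcodes were assigned as the opening states. No doublet caller was run; the limits on Cyp2g1 and on the share of the top receptor removed mixed barcodes in part, and an alternative left out the 5% deepest cells. Members and gene lists were chosen with earlier results of these data known. Counts were summed per library and class, without receptor genes (Olfr, Taar, Vmn1r and Vmn2r symbols), and tested with edgeR 4.0.16 in R 4.3.3 (quasi-likelihood test, filterByExpr, TMM scaling, the library as a block, Benjamini-Hochberg adjustment at 0.05). Omp, Cyp2g1 and mitochondrial genes, which the rule used, got no test. CPM of class sums are per TMM-scaled library size, and CPM per receptor are plain. DESeq2 1.42.0 was an alternative, beside other scalings, filters, cell limits and the fit without each library. Descriptions used Python 3.11.15 with pandas 2.3.3, numpy 2.4.6 and scipy 1.17.1.

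The library pairs the class sums, since both come from the same cell suspension. Deviations of the class I and class II sums of the same library correlated at 0.15, 0.13, -0.02 and 0.33 (across 10800 genes, which are not independent).

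Genes were named by rule: the 15 largest called rises and falls with the same sign in 4 libraries and 10 or more CPM in the higher class, 8 a side for dorsal-marked neurons, the 8 lowest p among receptors, the largest called changes of each list, all zone genes, Bcl11b and genes inside the class I cluster. Other genes were chosen after their values were seen, to show the steps of a pathway or a single receptor. Sum sizes ran from 1820517 to 3042716 UMIs in class I and from 33529744 to 37784308 in class II, so class I limits the precision. Intervals and floors cover counting error only. On simulated counts for the comparison of all class I with class II neurons (12734 genes), the test recovered 56.7%, 91.0% and 97.0% of genes changed by 0.5, 1 and 2 on the log2 scale, with 8 false calls among 171. Changes were placed only in well-counted genes, with the same low dispersion for every gene and no library differences beyond depth. These rates therefore need not hold for genes of few UMIs or genes carried by single cells.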

Additional observations from a re-analysis of the deposited data

Results flagged for a closer look

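In 15 of 95 groups of 4 library values, 1 library lay far from the other 3, where chance gives about 1 in 20 for independent, normally spread values. The groups here are not independent, and counting error was not weighed. The class I share was 9.0% in male 2 and 5.59% to 5.73% elsewhere. Male 2 was also high for Tmem52 in class I (31.0 CPM, others 20.6 to 22.1), for Fxyd2 in class II (26.1, others 5.42 to 7.41) and for Avp in class II (135.0, others 60.4 to 65.9). Among dorsal-marked neurons male 2 was high in class II for Avp (125.0, others 5.87 to 7.26) and Igfbp7 (47.0, others 5.39 to 10.6) and low in class I for Cdh26 (26.6, others 35.3 to 36.2).

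Female 1 was high for Tafa4 (49.1 CPM, others 27.0 to 28.6) and Neurod1 (93.7, others 9.13 to 21.5) in dorsal-marked class I and for Hbb-bt in class II (30.6, others 23.2 to 23.9). It was low for Bmp3 in class II (6.62, others 7.78 to 7.98) and alone held Spp1 UMIs in class I (0.942 CPM). Female 2 was low for Bmp3 in class I (33.1, others 42.7 to 44.3). Male 1 was high for Tafa4 in class II (0.266, others 0.171 to 0.182) and low for Adgrv1 there (0.59, others 0.798 to 0.816). These levels rest on 28 and 106 class II UMIs over the 4 libraries.

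Between the sexes, the class difference was higher in males on the log2 scale by 2.15 for Gstm1, 1.31 for Sec14l3 and 3.5 for Cyp4b1 in edgeR's interaction test.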

How the results depend on the processing

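No named gene that was called changed direction under any alternative that was run. Of the named genes, 76 of 105 called between all class I and class II neurons were called in the same direction under every alternative in which they were tested, as were 30 of 55 among dorsal-marked neurons, 8 of 8 among receptors and none of the 3 of the sex interaction. Without the library as a block (no pairing), 245 genes were called among dorsal-marked neurons in place of 489, 0 in place of 3 for the sex interaction, 2276 in place of 2213 between the classes and 341 in place of 380 among class I receptors. For dorsal-marked neurons DESeq2 called 133 genes, and 810 were called with no filter on low counts, which also gave 113 for the sex interaction. Leaving out each library in turn gave 1262 to 1951 calls between the classes, 289 to 367 among dorsal-marked neurons, 6 to 79 for the sex interaction and 243 to 329 among class I receptors, and the lowest count came without male 2 in all but the sex interaction, where it gave the highest. The cause was not tested, though fewer libraries lower the power by construction. The male minus female share of class I was 1.59 to 1.87 percentage points under the 3 alternatives, against 1.73. The alternative with 10 or more cells per receptor in every library left no receptor and was not run. Depth limits the class I side, whose sums held 1820517 to 3042716 UMIs.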
